A study of Sus scrofa with 8 samples.

Results

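The genes described here are the WNT ligands, their surface receptors and their secreted inhibitors in porcine pancreatic ductal organoids (PPDO), epithelial cultures grown from ducts picked from the pig pancreas. They were chosen by gene symbol, with earlier results of these data known. The rule took all genes named WNT, FZD, RSPO, SFRP or DKK followed by a digit, together with LGR4, LRP5, LRP6, ROR1, ROR2, RYK, PORCN, WLS, WIF1, FRZB, KREMEN1 and KREMEN2. This gave 53 of the 30282 genes in the count table. They comprise 18 ligands, 2 ligand processing genes, 10 frizzled receptors, 6 co-receptors and other receptors (RYK stands at 2 gene records), 5 genes of the R-spondins and their receptor LGR4, and 12 secreted inhibitors and KREMEN genes. WNT4 was not analysed here.

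WNT proteins are lipid-modified signals that act over short distances. They bind a frizzled receptor and the co-receptor LRP5 or LRP6, which spares beta-catenin from degradation so that it switches on target genes with TCF and LEF factors, while ROR1, ROR2 and RYK carry signals that do not need beta-catenin. R-spondins, bound by LGR receptors, raise the amount of frizzled at the surface, SFRP proteins, FRZB and WIF1 catch the ligand outside the cell, and DKK proteins block LRP5 and LRP6 together with the KREMEN receptors.

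Bulk RNA sequencing covered 4 PPDO lines, each cultured for a week in complete and in differentiation medium, which gave 8 libraries and n = 4 lines per medium. The line Em came from an embryo, EPN1 and EPN2 came from early postnatal pigs (up to about weaning) and LPN came from a late postnatal pig (after weaning, before reproductive maturity), all on a German landrace background. Both media held N2, B27 without vitamin A, the TGF-beta receptor inhibitor A83-01, the ROCK inhibitor Y-27632, nicotinamide and N-acetyl-cysteine. The differentiation medium left out prostaglandin E2, WNT3a, R-spondin 1, noggin, FGF10, EGF and gastrin, so that a WNT ligand and an R-spondin were supplied from outside in complete medium alone, and 7 factors were withdrawn at once. For upkeep of the lines, WNT3a, R-spondin 1 and noggin were replaced by an L-WRN conditioned medium supplement. Each line stands for 1 animal, so that stage and animal cannot be told apart. The paper describes these cultures as early passage, but its text gives no passage number for each line. Passage and line thus cannot be told apart either. The tests below compare the 4 lines between media, and in bulk RNA fewer cells of a type and less RNA per cell cannot be told apart.

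Library totals ranged from 40553593 to 47910657 counts, and 0 counts in a library sets a ceiling of 3 counts (0.0619 to 0.0731 CPM, counts scaled to library size). TMM factors of 0.935 to 1.06 entered the scaling. The epithelial and ductal markers EPCAM, CDH1, KRT7, KRT8, KRT18, SOX9, CFTR and PDX1 were all detected, with a summed level of 6608 to 9126 CPM in complete medium against 3811 to 14115 CPM in differentiation medium. CFTR, the chloride channel of duct cells, ranged from 2.97 to 338 CPM. The basal epithelial markers KRT5, TP63 and ITGA6 summed to 618 to 9130 CPM in complete medium against 358 to 11699 CPM in differentiation medium, highest in EPN2 and LPN in both, and ITGA6 among them fell (log2 fold change -1.80, edgeR adjusted p = 0.0377). Of the markers of other cells, 10 stromal genes summed to 147 to 420.0 CPM in complete medium against 217 to 543 CPM in differentiation medium, of which THY1 alone gave 140.5 to 416 and 216 to 533 CPM, while COL1A1, COL1A2, DCN, LUM, PDGFRA, ACTA2 and RGS5 were at or below 1.75 CPM in every library. Of the others, the collagen COL3A1 was at most 0.0487 CPM in complete medium and at 5.03, 6.07, 0.0467 and 0.167 CPM in Em, EPN1, EPN2 and LPN in differentiation medium. The receptor PDGFRB was lower in differentiation medium in 4 of 4 lines, at 2.74 ± 1.85 CPM against 0.383 ± 0.35 CPM (SD, n = 4, edgeR adjusted p = 0.121, and 0.016 with lines blocked). The 6 endothelial markers summed to 16.2 to 44.8 CPM with CDH5 at or under 3 counts throughout. The 6 immune markers summed to 1048 to 1850.0 CPM, nearly all of it CD79A, with CD3E at or under 3 counts and PTPRC at most 2.17 CPM. The 7 acinar, 6 endocrine and 4 nerve and Schwann cell markers summed to at most 6.54, 21.3 and 0.216 CPM.

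Of the 53 genes, 43 were above 3 counts in at least 1 library. The 10 that never were are WNT1, WNT8A, WNT16, the second RYK record, RSPO2, RSPO3, RSPO4, DKK1, SFRP2 and SFRP4, and no fold is given for them. The expression filter of edgeR kept 35 members among the 14475 genes tested, and the 18 others were left without a test.

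**Figure D1:**
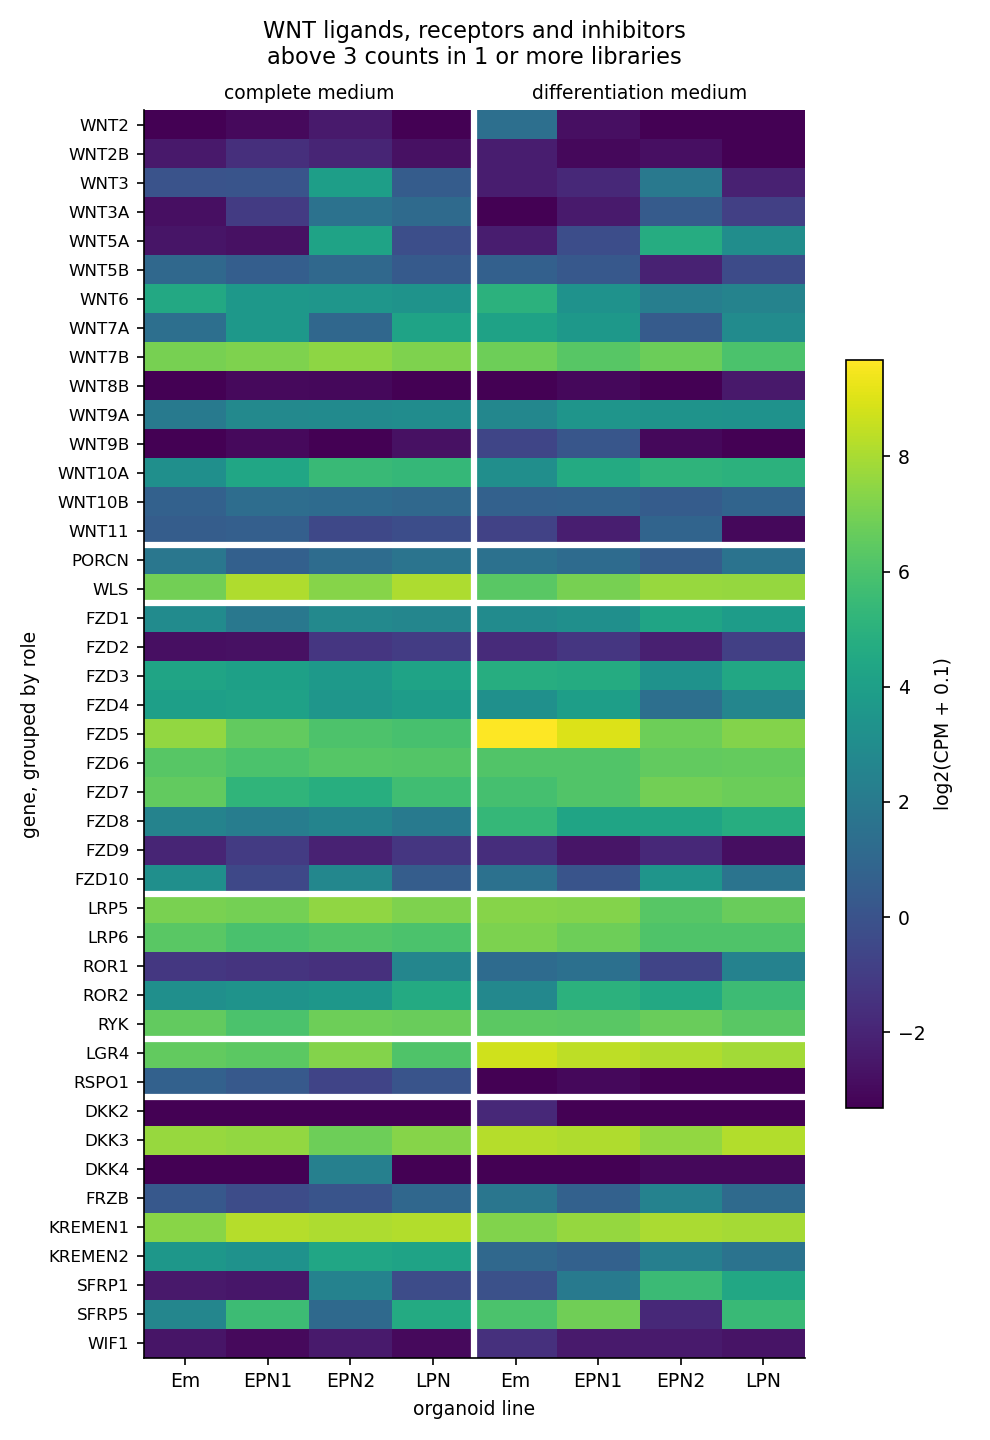
Level of the 43 genes that were above 3 counts in 1 or more libraries, as log2(CPM + 0.1) by color, with genes in rows grouped by role and the 4 lines in columns for each medium. RSPO1 is dark in all libraries of differentiation medium, DKK4 is lit in EPN2 in complete medium alone and WNT2 in Em in differentiation medium alone; counts were not corrected for gene length, so rows should not be compared with each other.

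The first question was whether the genes that send, receive and restrain WNT signals changed when the added WNT3a, R-spondin and other factors were withdrawn. In differentiation medium the receptor FZD8 and the R-spondin receptor LGR4 rose, and the R-spondin RSPO1 and the DKK partner KREMEN2 fell (edgeR, adjusted p under 0.05). These are 2 of 35 members higher and 2 of 35 lower, where 2.87% of all genes tested were called higher and 4.10% lower. With the organoid line as a block in edgeR, 5 members were higher (also FZD5, SFRP1 and DKK3) and 5 were lower (also WNT3, WNT3A and WNT7B), where 9.48% of all genes were called higher and 10.4% lower. DESeq2 called 7 members higher and 3 lower without the block, beside 9.96% and 9.97% of all genes. With the block it called 10 higher and 6 lower, beside 19.3% and 18.0%. The 3 and the 6 of 35 lower were thus near the shares of all genes. The libraries of the 2 media did not overlap in 3 members higher in differentiation medium (FZD1, FZD8 and LGR4) and 3 lower (WNT7B, RSPO1 and KREMEN2), where 8.82% and 9.96% of all genes did not overlap in the same directions. Both counts were near these shares. The median log2 fold change over the 35 members was 0.14 beside 0.01 over all genes tested, and 19 members had a positive and 16 a negative value. In edgeR without the block, 9 of the 35 members and 3954 of the 14475 genes tested had an unadjusted p under 0.05, which are similar shares.

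**Figure D2:**
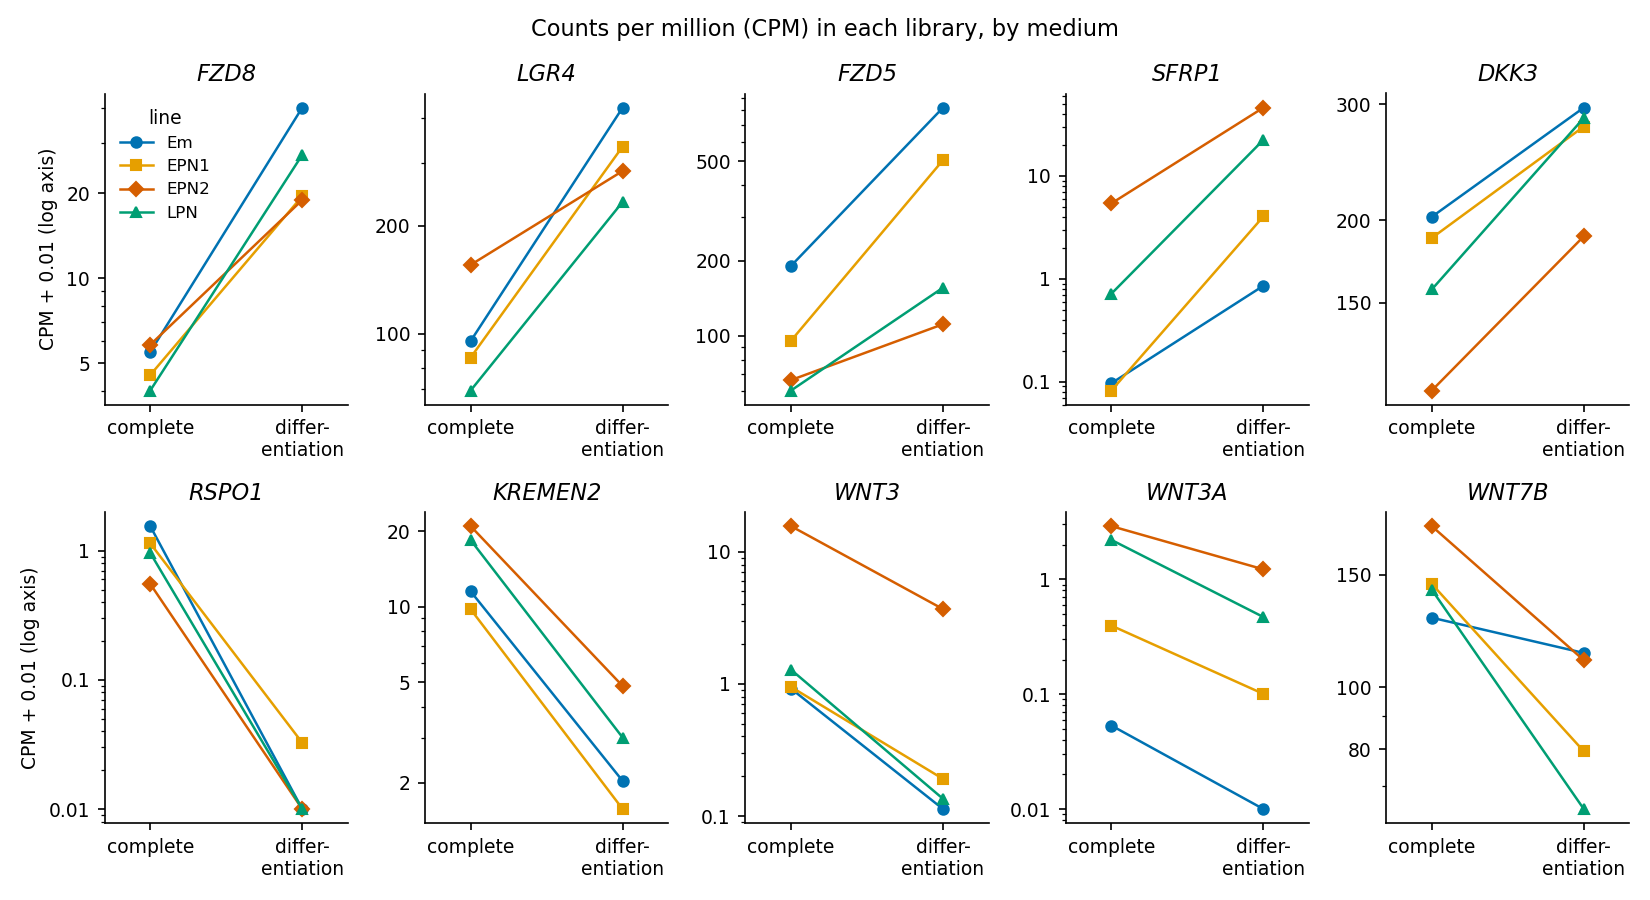
CPM + 0.01 on a log axis for the 10 members past an adjusted p of 0.05 with or without lines blocked, with one point per library, in complete medium at the left and differentiation medium at the right, and a line joining the libraries of each organoid line. The upper 5 genes go up in 4 of 4 lines and the lower 5 go down in 4 of 4 lines, while the lines lie far apart from each other in SFRP1, WNT3 and WNT3A; axes differ between panels.

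Among the receptors, FZD8 (ENSSSCG00000033001, chr10:58093980-58096790 in RefSeq Sscrofa11.1) encodes a frizzled that binds WNT at the surface. It was at 5.48, 4.54, 5.81 and 4.0 CPM in Em, EPN1, EPN2 and LPN in complete medium and at 40.1, 19.5, 18.9 and 27.3 CPM in differentiation medium, in the same order of lines. All 4 libraries of differentiation medium were above all 4 of complete medium, with the highest level in Em. The mean rose from 4.96 ± 0.836 to 26.4 ± 9.85 CPM (SD, n = 4), a log2 fold change of 2.41 (edgeR adjusted p = 0.00917, SE 0.29). With lines blocked it was 2.36 (edgeR adjusted p = 0.0109, SE 0.25). The call held in all 8 fits without 1 library, with adjusted p of 0.0142 to 0.0446, and was lost without both libraries of LPN (0.127) or of EPN1 (0.134), as were those of RSPO1, LGR4 and KREMEN2 (0.125 to 0.198), in fits that called 5 and 0 of all genes tested. The calls of LGR4 and KREMEN2 were also lost without both libraries of Em (0.0883 and 0.0812). That fit called 1.03% of all genes tested, against 6.97% in the main fit. Of the FZD8 counts, 42.4% lay in rows that extend the gene model downstream, and without those rows the log2 fold change was 2.41.

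FZD5 (ENSSSCG00000016140, chr15:110913990-110921388), a frizzled of the same subfamily as FZD8, had the most counts among the frizzled genes. It was at 190.5, 95.5, 66.4 and 60.3 CPM in Em, EPN1, EPN2 and LPN in complete medium and at 820.4, 505, 111 and 156 CPM in differentiation medium. FZD5 was higher in differentiation medium in 4 of 4 lines, but Em in complete medium lay above EPN2 and LPN in differentiation medium, so that the media overlapped. Its log2 fold change was 1.95 (edgeR adjusted p = 0.121, SE 0.69) without and 1.66 (edgeR adjusted p = 0.0234, SE 0.30) with lines blocked. The per-line change on the log2(CPM + 0.1) scale was 2.11 in Em and 2.40 in EPN1, and 0.74 in EPN2 and 1.37 in LPN. The summed ductal markers in differentiation medium were likewise higher in Em (14115 CPM) and EPN1 (9769 CPM) than in EPN2 (3811 CPM) and LPN (5466 CPM), and their part in the result was not tested.

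The other frizzled genes did not pass the threshold in either edgeR fit. FZD1 was at 7.56, 3.56, 6.78 and 6.26 CPM in complete medium against 7.74, 8.8, 19.0 and 14.5 CPM in differentiation medium in the same order of lines. Its libraries did not overlap between media, although Em moved by only 0.03 on the log2(CPM + 0.1) scale (log2 fold change 1.05, edgeR adjusted p = 0.115 and 0.0319 from DESeq2). FZD7 had values of 92.4, 36.6, 28.4 and 51.2 CPM in complete medium against 56.9, 71.1, 119 and 109.9 CPM in differentiation medium, so that it was lower in Em and higher in the 3 postnatal lines (adjusted p = 0.249 from edgeR). FZD4, which also serves as the receptor of norrin, was at 14.8 ± 2.71 CPM in complete medium against 8.39 ± 5.52 CPM in differentiation medium (SD, n = 4) and was lower in 4 of 4 lines, with an adjusted p of 0.307 from edgeR (0.0757 with lines blocked, and 0.0124 from DESeq2 with lines blocked). FZD3 (9.72 to 27.6 CPM) and FZD6 (64.6 to 96.6 CPM), the frizzleds best known from planar cell polarity, had log2 fold changes of 0.33 and 0.18. FZD10 ranged from 0.601 to 10.9 CPM with no common direction, and FZD2 and FZD9 stayed at or below 0.459 CPM. Of the 9 frizzled genes tested, FZD4 alone had a negative log2 fold change and the median was 0.46 beside 0.01 over all genes tested.

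The co-receptors LRP5 and LRP6, which bind the ligand together with a frizzled, were expressed in every library. LRP5 (chr2:4533721-4653997), which had the most counts of this group, was at 133, 125, 182 and 142 CPM in complete medium against 158, 156, 79.6 and 105 CPM in differentiation medium for Em, EPN1, EPN2 and LPN. It was higher in differentiation medium in Em and EPN1 and lower in EPN2 and LPN, and the media overlapped (log2 fold change -0.22, edgeR adjusted p = 0.583, SE 0.24). LRP6 was at 61.7 to 82.2 CPM in complete medium against 67.5 to 137 CPM in differentiation medium (adjusted p = 0.26), with 137 and 112 CPM in Em and EPN1 and 67.5 and 69.3 CPM in EPN2 and LPN. Both co-receptors thus had lower levels in EPN2 and LPN than in Em and EPN1 in differentiation medium, a difference that was not tested.

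Of the receptors that act without beta-catenin, ROR2 (chr14:2803840-3035384), a receptor of WNT5A, had the largest absolute log2 fold change in edgeR without lines blocked. It was at 8.8, 9.98, 11.6 and 24.6 CPM in complete medium against 6.6, 33.0, 23.1 and 47.9 CPM in differentiation medium, lower in Em and higher in the 3 postnatal lines. The media overlapped, and the log2 fold change was 1.01 (edgeR adjusted p = 0.296, SE 0.58). ROR1 was at 6.17 CPM in LPN and at 0.249 to 0.325 CPM in the other lines in complete medium, and at 0.537 to 5.39 CPM in differentiation medium (edgeR adjusted p = 0.761). It was higher in differentiation medium in Em, EPN1 and EPN2 and lower in LPN. With lines blocked, edgeR gave log2 fold changes of 1.70 for ROR1 (adjusted p = 0.128) and 0.83 for ROR2 (adjusted p = 0.144). RYK was at 64.0 to 111 CPM and had a log2 fold change of -0.08. None of the 5 tested genes of this group passed the threshold in edgeR. None had an unadjusted p under 0.05, where 3954 of all 14475 genes tested did. DESeq2 called 0 without and 1 with lines blocked (ROR1, adjusted p = 0.0249).

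RSPO1 (ENSSSCG00000032240, chr6:93664839-93690328) is the gene of the R-spondin named in the recipe of complete medium. It was the only one of the 4 R-spondin genes above 3 counts in any library. It had 71, 47, 24 and 39 counts in Em, EPN1, EPN2 and LPN in complete medium, or 1.54, 1.13, 0.543 and 0.951 CPM, and 0, 1, 0 and 0 counts in differentiation medium. The media did not overlap, and every line went from at least 24 counts to at most 1. The level was low throughout, and against the limit of 3 counts per library RSPO1 was at least 15.9-fold lower in differentiation medium (edgeR adjusted p = 0.00943, and 0.0105 with lines blocked, n = 4 per medium). The call held in all 8 fits without 1 library, with adjusted p of 0.0131 to 0.0489.

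LGR4 (ENSSSCG00000013335, chr2:32871837-32979150), a receptor of R-spondins, went the other way. It was at 95.4, 85.8, 156 and 69.4 CPM in Em, EPN1, EPN2 and LPN in complete medium and at 428, 333, 285 and 233 CPM in differentiation medium. All 4 libraries of differentiation medium lay above all 4 of complete medium, and EPN2, the highest line in complete medium, rose least. The mean rose from 102 ± 37.6 to 319.8 ± 82.8 CPM (SD, n = 4), a log2 fold change of 1.65 (edgeR adjusted p = 0.0227, SE 0.29). With lines blocked it was 1.69 (edgeR adjusted p = 0.0153, SE 0.24). The fits without Em, LPN or EPN1 in complete medium or without EPN1 in differentiation medium gave adjusted p of 0.0555, 0.0675, 0.0745 and 0.0739, with log2 fold changes of 1.51 to 1.65. These fits called 0.474% to 3.01% of all genes tested, against 6.97% in the main fit, so that calls were lost over all genes too.

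The other R-spondin receptors LGR5 and LGR6, which are not among the 53 genes and which mark stem cells in several epithelia, moved against LGR4. LGR5 was at 8.99, 5.03, 4.11 and 11.4 CPM in complete medium against 0.186, 0.0453, 0 and 0.167 CPM in differentiation medium for Em, EPN1, EPN2 and LPN. LGR6 was at 25.7 to 76.7 CPM in complete medium against 0.413 to 2.73 CPM in differentiation medium. Thus LGR4 rose in 4 of 4 lines while LGR5 and LGR6 fell in 4 of 4 lines, with log2 fold changes of 1.65, -6.15 and -4.90 (adjusted p = 0.0227, 0.0158 and 0.0132 from edgeR). The calls of LGR5 and LGR6 held in 7 of the 8 fits without 1 library, the exception for both being EPN1 in differentiation medium (0.0616 and 0.0579). The fit without that library called 0.474% of all genes tested.

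Among the secreted inhibitors and their receptors, KREMEN2 (ENSSSCG00000035052, chr3:39214251-39218805), a surface receptor through which DKK proteins remove LRP6, fell. It was at 11.5, 9.76, 20.9 and 18.4 CPM in Em, EPN1, EPN2 and LPN in complete medium and at 2.02, 1.56, 4.83 and 3.01 CPM in differentiation medium. The highest library of differentiation medium stayed below the lowest of complete medium, and the order of the lines was EPN2, LPN, Em and EPN1 from high to low in both media. The mean fell from 15.2 ± 5.36 to 2.86 ± 1.45 CPM (SD, n = 4), a log2 fold change of -2.41 (edgeR adjusted p = 0.023, SE 0.43). With lines blocked it was -2.47 (edgeR adjusted p = 0.00811, SE 0.18). The fits that follow left out 1 library and had no block. The call was lost in 5 of the 8 fits without 1 library, namely without LPN (0.0703) or EPN1 (0.0521) in complete medium and without Em (0.0515), LPN (0.0697) or EPN1 (0.0734) in differentiation medium, at log2 fold changes of -2.55 to -2.20. These 5 fits called 0.474% to 3.36% of all genes tested, against 6.97% in the main fit, so that calls were lost over all genes too.

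KREMEN1 (chr14:46254248-46323355), its paralog with the same role and the gene with the most counts of this group, was at 165, 301, 266 and 288 CPM in complete medium against 148, 196, 264 and 239 CPM in differentiation medium, lower in 4 of 4 lines but by at most 0.62 on the log2(CPM + 0.1) scale. The media overlapped, and the log2 fold change of -0.27 (SE 0.24) did not pass the threshold (adjusted p = 0.511 from edgeR). The difference between the changes of the paralogs was not tested.

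SFRP1 (chr17:10436414-10489773), a secreted frizzled-related protein that binds WNT outside the cell, had the highest log2 fold change of the inhibitors. It was at 0.0867, 0.0721, 5.4 and 0.707 CPM in Em, EPN1, EPN2 and LPN in complete medium and at 0.846, 4.03, 46.1 and 22.4 CPM in differentiation medium. Within each line it was higher in differentiation medium, but EPN2 in complete medium exceeded Em and EPN1 in differentiation medium. The log2 fold change was 3.55 (edgeR adjusted p = 0.203, SE 1.63) without and 4.18 (edgeR adjusted p = 0.0129, SE 0.52) with lines blocked. In complete medium SFRP1 had only 4 counts in Em and 3 in EPN1, so that the changes of these lines rest on few reads.

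SFRP5, of the same family, was at 6.22, 48.4, 2.1 and 24.9 CPM in complete medium against 63.1, 117, 0.187 and 45.2 CPM in differentiation medium. It was higher in differentiation medium in Em, EPN1 and LPN and lower in EPN2, where 93 counts became 8 (adjusted p = 0.525 from edgeR). FRZB, a further member of this family, was higher in 4 of 4 lines, with 1.08, 0.721, 0.95 and 1.9 CPM in complete medium against 3.34, 1.52, 5.42 and 2.13 CPM in differentiation medium, and had a log2 fold change of 1.41 (adjusted p = 0.117 from edgeR and 0.032 from DESeq2).

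DKK3 (chr2:47385244-47444664), a divergent DKK protein whose link to LRP co-receptors is less clear, was at 202, 188, 110.4 and 157 CPM in Em, EPN1, EPN2 and LPN in complete medium and at 296, 277, 189 and 286 CPM in differentiation medium. It was higher in 4 of 4 lines by similar steps (0.55 to 0.86 on the log2(CPM + 0.1) scale), and EPN2 was lowest in both media, and the media overlapped. The log2 fold change was 0.67 (edgeR adjusted p = 0.106, SE 0.22) without and 0.69 (edgeR adjusted p = 0.0174, SE 0.11) with lines blocked.

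DKK4, an inhibitor that WNT signaling itself induces in several tissues, was seen in a single library. EPN2 in complete medium had 221 counts, or 4.81 CPM of its library total (exact 95% interval 4.19 to 5.48, counting error only), whereas the other 7 libraries had at most 1 count. DKK2 had 9 counts in Em in differentiation medium and 0 in all others, and WIF1 reached at most 0.248 CPM. The expression filter left these 3 genes without a test, and in the edgeR fit without that filter none of them was called between media or lines.

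No WNT ligand passed the threshold in edgeR without lines blocked, and DESeq2 called WNT7B alone (adjusted p = 0.0282). In edgeR 1 of the 11 tested had an unadjusted p under 0.05 (WNT7B), beside 3954 of all 14475 genes tested. WNT7B (chr5:3521412-3572322), an epithelial ligand that can act through beta-catenin, had the most counts among the ligands. It was at 128, 145, 178 and 142 CPM in Em, EPN1, EPN2 and LPN in complete medium and at 113, 79.4, 110.2 and 64.5 CPM in differentiation medium. It was lower in 4 of 4 lines and the media did not overlap, although Em moved little (-0.18 on the log2(CPM + 0.1) scale, against -1.14 in LPN). The log2 fold change was -0.69 (edgeR adjusted p = 0.0809, SE 0.21) without and -0.72 (edgeR adjusted p = 0.0407, SE 0.17) with lines blocked.

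WNT3 (ENSSSCG00000017317, chr12:17627291-17681197), a ligand of the beta-catenin branch that Paneth cells supply in the intestine, had the largest absolute log2 fold change of the ligands. It was at 0.91, 0.938, 15.6 and 1.27 CPM in Em, EPN1, EPN2 and LPN in complete medium and at 0.103, 0.181, 3.67 and 0.125 CPM in differentiation medium. EPN2 stood far above the other lines in both media, and every line was lower in differentiation medium by 1.88 to 2.60 on the log2(CPM + 0.1) scale. Without the block WNT3 did not pass the threshold (log2 fold change -2.20, edgeR adjusted p = 0.375, SE 1.5), and with the block it was -2.64 (edgeR adjusted p = 0.0126, SE 0.32). Without a block and without both libraries of EPN2 it was -2.90 (adjusted p = 0.0259 from edgeR).

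WNT3A (chr2:51153978-51203678), the gene of the ligand that complete medium supplied as protein, was at 0.0433, 0.385, 2.89 and 2.19 CPM in complete medium against 0, 0.0905, 1.21 and 0.459 CPM in differentiation medium. It was lower in 4 of 4 lines, but EPN2 and LPN were higher than Em and EPN1 in both media, and Em had at most 2 counts. The log2 fold change was -1.64 (edgeR adjusted p = 0.489, SE 1.43) without and -1.90 (edgeR adjusted p = 0.0377, SE 0.43) with lines blocked. Of its counts, 63.4% lay in rows that extend the gene model downstream.

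The other ligands had no common direction. WNT5A, the best known ligand of the branch without beta-catenin, was higher in 4 of 4 lines (log2 fold change 0.87, adjusted p = 0.804, and 2.07 with adjusted p = 0.0864 with lines blocked, both from edgeR, where DESeq2 with lines blocked gave 0.00593). WNT9A was also higher in 4 of 4 lines, at 3.99 to 7.78 CPM in complete medium against 6.33 to 10.8 CPM in differentiation medium. WNT5B was lower in 4 of 4 lines, at 1.17 to 1.99 CPM in complete medium against 0.14 to 1.46 CPM in differentiation medium. They had adjusted p of 0.267 and 0.357 from edgeR, and DESeq2 with lines blocked called WNT9A (0.00134). WNT7A was at 2.6, 12.1, 1.9 and 18.3 CPM in complete medium against 17.6, 12.0, 1.24 and 7.56 CPM in differentiation medium, a difference of 2.71 on the log2(CPM + 0.1) scale in Em and of -1.26 in LPN. WNT6 ranged from 4.55 to 32.3 CPM, with Em highest in both media. WNT10B (1.28 to 2.38 CPM) overlaps WNT1, which had at most 2 counts in any library, by 3.3 kb in RefSeq. Reads in the overlap were not examined. WNT11 (0.0209 to 1.73 CPM) was lower in 3 lines and higher in EPN2.

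A few ligands appeared in 1 or 2 libraries alone. WNT2 had 126 counts in Em in differentiation medium, or 2.63 CPM of the library total (exact 95% interval 2.19 to 3.13), and at most 4 counts in the other 7. WNT9B, the neighbor of WNT3 on chromosome 12 with no coding gene between them, had 27 counts in Em (0.564 CPM, 0.371 to 0.820) and 45 in EPN1 (1.08 CPM, 0.790 to 1.45) in differentiation medium and at most 2 counts elsewhere. COL3A1 was likewise higher in Em and EPN1 than in the other lines in differentiation medium, and the part of stromal cells in these values was not tested. WNT2B stayed at or below 0.24 CPM and WNT8B at or below 0.0835 CPM.

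The genes that make WNT ligands ready for release did not pass the threshold. WLS (chr6:144242639-144529659), which carries WNT proteins to the cell surface, was at 121, 278, 162 and 272 CPM in complete medium against 81.8, 129, 205 and 194 CPM in differentiation medium. It was lower in Em, EPN1 and LPN and higher in EPN2 (log2 fold change -0.45, edgeR adjusted p = 0.46, SE 0.37). PORCN, which attaches the lipid that WNT ligands need, was at 1.51 to 3.49 CPM in complete medium against 1.35 to 2.96 CPM in differentiation medium (adjusted p = 0.816). Neither had an unadjusted p under 0.05, and neither was called by DESeq2 with or without lines blocked.

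**Figure D3:**
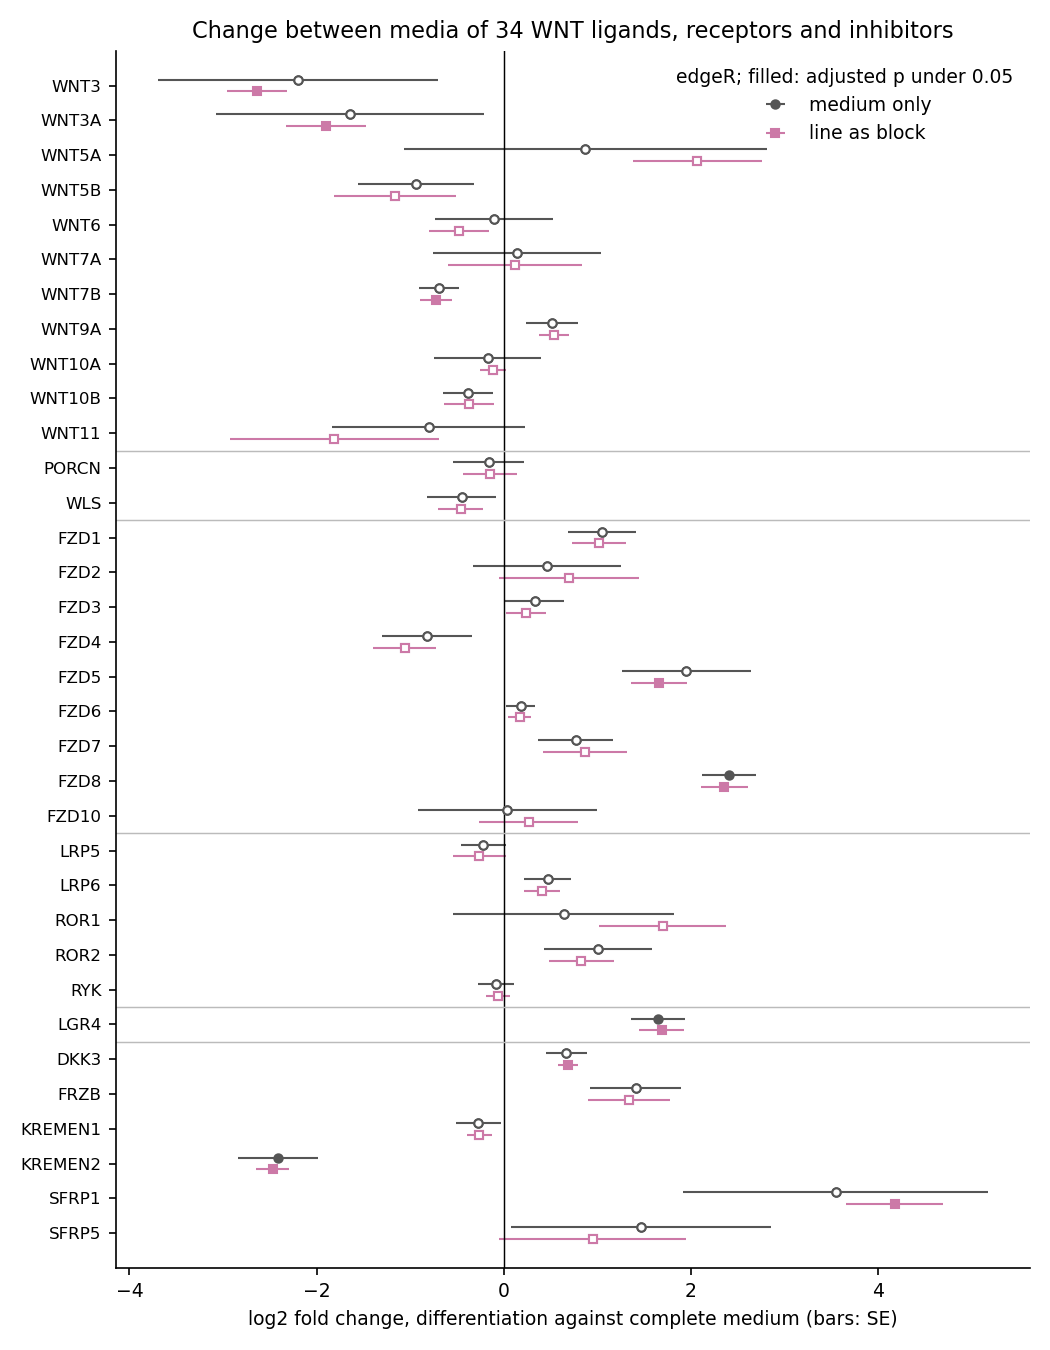
Log2 fold change of differentiation against complete medium (horizontal axis, bars show the SE) for 34 of the 35 genes tested, from edgeR with the medium alone (gray circles) and with lines blocked (pink squares), filled where the adjusted p is under 0.05. FZD8, LGR4 and KREMEN2 are filled in both fits, and the bars of WNT3, WNT3A and SFRP1 are much shorter with the block; RSPO1 is left out because differentiation medium was at or under 3 counts.

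The second question was whether the lines differed once the medium was accounted for. Of the 35 members, 5 passed the threshold (edgeR, F test of the line terms), where 5.14% of all genes tested were called. They were 4 ligands (WNT3, WNT3A, WNT5A and WNT10A) and the inhibitor SFRP1. No receptor was among them in this fit, although FZD5 had an adjusted p of 0.0768 and KREMEN2 of 0.0754. DESeq2, which called 31.5% of all genes between lines, also called the receptors FZD5, FZD10, ROR1, ROR2, KREMEN1 and KREMEN2. Each line is 1 animal with 1 library per medium, so the test compares these 4 cultures and not stages.

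WNT5A (chr13:37344684-37367215) was at 0.065, 0.0481, 18.5 and 0.78 CPM in Em, EPN1, EPN2 and LPN in complete medium and 0.103, 0.747, 26.6 and 8.06 CPM in differentiation medium (adjusted p between lines = 0.0311 from edgeR). EPN2 was highest and LPN second in both media, and Em and EPN1 were at most at 0.747 CPM. SFRP1 had the same order at the top, with EPN2 above LPN and both above Em and EPN1 within each medium (adjusted p = 0.0311). WNT10A (chr15:120925204-120939032), a ligand of skin and tooth epithelium, was at 8.93, 20.6, 44.7 and 39.8 CPM in complete medium against 8.44, 24.8, 35.5 and 32.6 CPM in differentiation medium, in the order EPN2, LPN, EPN1 and Em in both (adjusted p = 0.0234). WNT3A also had EPN2 highest, LPN second, then EPN1, and Em lowest in both media (adjusted p = 0.0293). WNT3 was high in EPN2 alone, and its next line reached 1.27 CPM in complete medium against 0.181 CPM in differentiation medium (adjusted p = 0.0148).

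In WNT3A, WNT5A, WNT10A and SFRP1 the 2 early postnatal lines thus lay apart, EPN1 below and EPN2 above LPN in both media, and pairs of lines were not tested. The sum of the basal epithelial markers, most of it KRT5 in EPN2 and LPN, had the same order, with levels in complete and differentiation medium of 618 and 358 CPM in Em, 1698 and 1887 CPM in EPN1, 6511 and 5663 CPM in LPN and 9130 and 11699 CPM in EPN2. KRT5, the keratin that defines basal cells, was at 4.51, 306, 7653 and 4359.7 CPM in Em, EPN1, EPN2 and LPN in complete medium and at 79.4, 1431, 11106 and 4812 CPM in differentiation medium (adjusted p between lines = 0.056 from edgeR). The other basal markers did not keep this order, since LPN was above EPN2 in TP63 in complete medium (218 and 127 CPM) and in ITGA6 in both media (1933 and 1350.0 CPM, then 558 and 284 CPM), and ITGA6 in differentiation medium was higher in EPN1 (372 CPM) than in EPN2. The part of basal cells in the differences of WNT3A, WNT5A, WNT10A and SFRP1 between lines was not tested. The sum of the stromal markers, nearly all of it THY1, was 273 and 217 CPM in EPN2 and 147 and 543 CPM in Em (complete and differentiation medium). The part of stromal cells in these differences was not tested.

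The calls between lines depended on single libraries, and a line left with 1 library was assumed to vary like the others. The counts of unadjusted p given next have no share over all genes beside them, so nothing is read from them. None of the 35 members was called without LPN or without EPN1 in either medium, at 10 to 14 unadjusted p under 0.05, or without both libraries of Em (edgeR, 15 unadjusted p under 0.05). These fits called 0.163% to 0.717% of all genes tested, so that calls were lost over all genes and not in the members alone. WNT3 was called without Em in complete or in differentiation medium (1 member and 2 members called in all), and 6 and 4 members were called without EPN2 in complete and in differentiation medium. The fits without EPN2 called 6.53% and 3.13% of all genes, and those without Em 1.22% and 1.61%. DESeq2 called 15 of the 35 members between lines, these 5 among them, beside 31.5% of all genes.

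**Figure D4:**
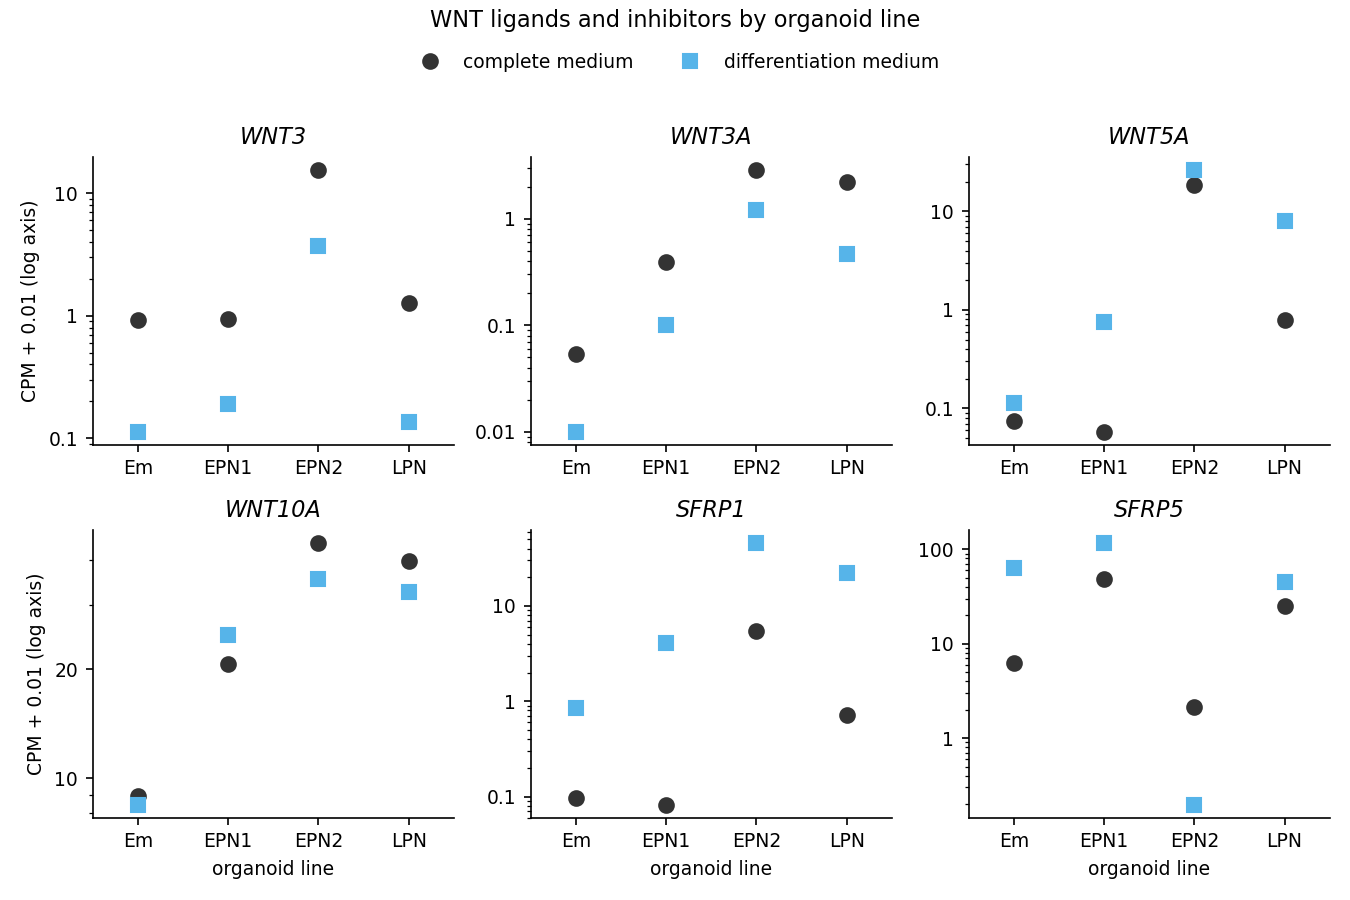
CPM + 0.01 on a log axis in the 4 organoid lines (horizontal axis) for the 5 members that differed between lines and for SFRP5, with one black circle per library in complete and one blue square per library in differentiation medium. In WNT3A, WNT5A, WNT10A and SFRP1 both libraries of EPN2 lie above the matching library of every other line, and in SFRP5 the square lies below the circle in EPN2 alone; axes differ between panels.

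Other genes of the pathway were counted over whole lists, which like the members were chosen with earlier results of these data known. Of 26 other surface and extracellular regulators, 22 were in the table and 13 were tested, of which 1 was higher and 4 were lower in differentiation medium (edgeR, median log2 fold change -0.77 beside 0.01 over all genes), where 2.87% of all genes were called higher and 4.10% lower. The lower ones were LGR5, LGR6, NOTUM, a secreted enzyme that removes the lipid from WNT ligands, and IGFBP4, a binding protein of insulin-like growth factors that can also block frizzled and LRP6. NOTUM went from 1.21, 1.01, 9.11 and 1.49 CPM in Em, EPN1, EPN2 and LPN to 0.144, 0.136, 0.257 and 0.397 CPM, and IGFBP4 from 9.53, 6.56, 3.73 and 13.3 CPM to 1.46, 0.883, 0.747 and 3.01 CPM (log2 fold changes -3.76 and -2.44, adjusted p = 0.0447 for each from edgeR). Both calls held in 1 of the 8 fits without 1 library, namely without EPN2 in complete medium (0.0367 and 0.0369), with adjusted p of at most 0.126 and 0.124 in the others. The 1 fit that kept them called 8.08% of all genes tested and the others 0.474% to 6.08%, against 6.97% in the main fit. The higher one was LRP4, a relative of LRP5 and LRP6 that binds sclerostin, at 0.542, 1.61, 7.23 and 7.21 CPM in complete medium against 114, 35.1, 32.0 and 33.3 CPM in differentiation medium (edgeR adjusted p = 0.0474 and 0.0573 with lines blocked, log2 fold change 3.69). The call of LRP4 held in 0 of the 8 fits without 1 library (edgeR adjusted p of 0.0555 to 0.123, log2 fold changes of 3.01 to 4.11). With the block, 7 were lower and 0 higher, where 10.4% of all genes were called lower and 9.48% higher. Added to the 4 were ZNRF3, a ubiquitin ligase that removes frizzled, APCDD1, an inhibitor that binds WNT and LRP5, and the receptor-like PTK7. Their adjusted p were 0.0174, 0.0237 and 0.0162 in that order (edgeR with lines blocked). RNF43, the partner of ZNRF3, was not analysed here.

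Inside the cell, 29 of 32 transducers of the WNT signal were tested and 1 was higher and 0 lower, which is near the 2.87% and 4.10% of all genes called. The gene was TLE1, a co-repressor that TCF factors recruit, at 55.3, 28.6, 42.4 and 29.5 CPM in complete medium against 118, 95.9, 163 and 114 CPM in differentiation medium (edgeR adjusted p = 0.0179, log2 fold change 1.66). The media did not overlap in TLE1, and the call was lost without either library of LPN or of EPN1 (adjusted p of at most 0.0591). The block added TLE4 and the kinase GSK3A, both higher (adjusted p = 0.0145 and 0.0422, edgeR). With it 3 of the 29 were higher and 0 lower, where 9.48% of all genes were called higher and 10.4% lower. The share called higher was thus near that of all genes. CTNNB1, the gene of beta-catenin, was at 489 to 607 CPM in complete medium against 609 to 857 CPM in differentiation medium, with a log2 fold change of 0.36 (adjusted p = 0.184 from edgeR).

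Of 11 planar cell polarity partners, which orient cells within the plane of an epithelium, 9 were tested and 1 was higher and 0 lower, beside the same shares of all genes. PRICKLE1 was at 2.1, 1.51, 2.17 and 3.61 CPM in Em, EPN1, EPN2 and LPN in complete medium and at 10.3, 17.6, 30.5 and 29.8 CPM in differentiation medium, without overlap (log2 fold change 3.23, edgeR adjusted p = 0.0123), and the call held in all 8 fits without 1 library (0.0136 to 0.0483). With lines blocked VANGL1 and PRICKLE2 were also higher and CELSR3 was lower (adjusted p = 0.0346, 0.0301 and 0.0443, edgeR). That made 3 of the 9 higher and 1 lower, where 9.48% of all genes were called higher and 10.4% lower. PRICKLE2 and VANGL1 also differed between lines (adjusted p = 0.0199 and 0.0347, edgeR), with EPN2 highest and LPN second in both media, as in WNT5A and SFRP1.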

How the data were processed

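Poly(A) RNA of 8 PPDO cultures was sequenced on an Illumina NovaSeq X Plus, and the authors ran salmon within an nf-core pipeline on a pig genome with custom annotation. They deposited estimated counts (expected counts) per gene, labelled as raw. For their own differential expression the authors name counts scaled by gene length, and the values do not show if the deposited table is of that kind (78.6% of its positive values are exactly whole, with no tolerance). The labels name the build Sscrofa11.1. The table has 56060 rows. Rows of a gene, including those with the suffixes -iso and -ext, were summed and rounded, which left 30282 genes, 5612 of them without a count, and 8 reporter rows with 0.00142% of the counts were left out. No column was left unused. 1 marker of the ductal list is not reported here and is not in its sums. Gene spans of 51 members were matched by symbol to RefSeq Sscrofa11.1. The strand setting of the counting is not given in the sources used here.

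Media were taken from the sample titles and the paper, since the treatment label is the same for all 8 libraries, and lines from the column names of the table; the replicate numbers of the labels were not matched to columns. The main tool was edgeR 4.0.16 in R 4.3.3 (TMM, filterByExpr by medium, quasi-likelihood F test, medium as the only term, Benjamini-Hochberg over the 14475 genes tested, adjusted p under 0.05). Lines were compared with line and medium as terms. Adjusted p-values for n = 4 per medium are from these fits across all genes. The line as a block pairs cultures of the same animal. After the medium means were removed, libraries of the same line correlated at 0.401 to 0.658 and those of different lines at -0.491 to 0.265. Alternatives were DESeq2 1.42.0, RLE and upper-quartile scaling, no filter on low counts, no extension rows, the block, and leaving out each library or line. The fits were run on simulated counts as a check of the code. The simulated lines differed less than those seen in WNT3, WNT5A and SFRP1, so the check does not bear on these genes. Changes within a line used a pseudocount of 0.1 CPM. Python tools were numpy 2.4.6, pandas 2.3.3, scipy 1.17.1 and matplotlib 3.10.9.

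The genes, lists and named genes were chosen with earlier results of these data known. All values of a library are given for members past the threshold with or without the block, for the member with the most counts and the one with the largest log2 fold change in each role, and, chosen after their values were seen, for those that differed between lines and for others whose lines differed, FZD1, FZD7, FRZB, SFRP5 and WNT7A among them. LGR5, TLE1 and other pathway genes are named where they passed the threshold.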

Additional observations from a re-analysis of the deposited data

Results flagged for a closer look

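In 10 of 81 sets of 4 libraries of 1 medium, the highest library stood apart from the others by Dixon's test on CPM (critical value 0.829). Its chance rate of about 1 set in 20 holds for normally distributed values. CPM was not checked for that, so the 10 sets are not read as more than chance would flag. In DKK4 and DKK2 the other 3 libraries were at 0, which fixes the outcome, and 8 of the 79 sets without such zeros remain. EPN2 in complete medium stood apart in WNT3 (15.6 CPM, the next library at 1.27), WNT5A (18.5 CPM, next 0.780), SFRP1 (5.4 CPM, next 0.707) and DKK4 (5.0 CPM, next 0). WNT3 stood apart in EPN2 in differentiation medium too (3.67 CPM, next 0.181). Em stood apart in differentiation medium in WNT2 (2.6 CPM, next 0.0453), DKK2 (0.186 CPM, next 0) and WIF1 (0.248 CPM, next 0.0934), and in complete medium in WNT6 (22.7 CPM, next 12.2). LPN in complete medium stood apart in ROR1 (6.17 CPM, next 0.325). EPN1 was never the library apart among these sets.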

How the results depend on the processing

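Without the block 2 members were higher and 2 lower in differentiation medium, and 5 differed between lines. With the line as replicate block edgeR called 5 higher and 5 lower, the 2 and 2 among them, and DESeq2 called 10 and 6 (19.3% and 18.0% of all genes). Without the block DESeq2 called 7 higher (9.96% of all genes), and 15 between lines (31.5%). Leaving out 1 library or 1 line gave 0 to 3 higher, 0 to 3 lower and 0 to 6 between lines. Between media, the fits without 1 library called 0.474% to 8.08% of all genes, against 6.97% in the main fit. The 0 in each direction between media came without LPN or without EPN1 in both media. These edgeR fits called 5 and 0 of all genes, so that the lost calls say nothing of the members. RLE and upper-quartile scaling and the table without extension rows gave 2 higher and 2 lower each, as did the fit without a filter on low counts.

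Log2 fold changes that turned sign were those of WNT5A (-0.71 without EPN2 in differentiation medium to 4.90 without EPN2 in complete medium), WNT10A (0.03 without LPN, 0.13 without EPN2 and -0.45 without Em in complete medium, 0.12 without Em in differentiation medium) and LRP5 (0.07 without both libraries of EPN2 to -0.41 without both of EPN1), none of them past the threshold, and the cause was not tested. Of 302 values of the 16 genes with a full account under other settings, 259 kept their direction and their side of the threshold. Of the rest, 19 were no longer past it and 19 were newly past it. All losses fell on FZD8, RSPO1, LGR4 and KREMEN2, the only genes of the 16 called in the main fit. Their calls held in 17, 17, 12 and 11 of 19 other settings each. WNT3 without the block was at -0.03 without EPN2 in complete and at -5.08 without EPN2 in differentiation medium. Genes at a few counts per library, such as RSPO1, SFRP1 in Em and EPN1 and WNT3A in Em, are limited by depth, and for RSPO1 a lower bound alone is given. DESeq2 without the block gave no adjusted p for WNT3, and the fit without extension rows did not test WNT3A. The block was not combined with leaving out libraries.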
